A study of Homo sapiens with 6 samples.

Results

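Described here are the transcripts of the translation initiation and elongation factors in MOLM14 cells, together with the EIF2AK kinases, which were kept apart from the factors. A gene was taken where it was protein-coding and its symbol began with EIF or EEF. EEF1E1, a synthetase-complex scaffold in spite of its symbol, was left out. By this rule 34 genes were measured, 30 factors or their partner enzymes and 4 kinases, out of 14884 named genes on the arrays, 11916 of them protein-coding. MOLM14 is an established human acute myeloid leukaemia line. Its cells received either siRNA aimed at ATF4 (siATF4, 3 arrays) or a control siRNA (siCTRL, 3 arrays), which the labels call scrambled in 1 place and a non-targeting pool in another. Both were given at 70 nM by electroporation, and both groups were grown in the same serum-containing RPMI medium. The sources used here do not give the time between transfection and lysis. The comparison asks how transcript levels differ once the ATF4 message is targeted.

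Initiation factors bring the ribosome, the initiator tRNA and the mRNA together, and elongation factors carry the ribosome along the reading frame. In the initiation branch, the eIF4 proteins bind and unwind the capped mRNA end and eIF2 delivers the initiator tRNA. EIF2AK kinases phosphorylate eIF2 under stress, which lowers translation as a whole while favouring a few messages, ATF4 among them. ATF4 therefore lies downstream of the translation machinery, and several genes of that machinery are known in turn as its targets.

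The gene table of GRCh38.p14 holds 70 protein-coding genes that meet the rule, and 36 of them carried no named feature here and are not analysed. These include every subunit gene of eIF2 (4 genes), of its exchange factor eIF2B (5 genes) and of the scaffold eIF3 (14 genes). The 3 complexes therefore have 0 measured genes and no value below. Of the eIF4 group 10 of 16 genes were measured, of the core elongation factors 5 of 7, of the enzymes that act on elongation factors 5 of 7, of the remaining initiation factors 10 of 13, and of the kinases 4 of 4.

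Promoter sequences bear on these genes in 3 ways, and the matching stretches are printed so that the array values of the genes that carry each element can be read beside it. Many translation factor mRNAs begin with a C and a pyrimidine tract, the terminal oligopyrimidine start that mTORC1 signalling acts on. RefSeq start sites (GRCh38.p14) were found for 28 of the 34 genes. A start with C and at least 5 pyrimidines in a row was found for 4 of the 28 (14.3%), against 6.15% of 10749 measured genes with an entry. In the following lines the capitals mark that tract, after 20 bases of upstream sequence.
EEF1A1, chr6:73521018-73521052, minus strand: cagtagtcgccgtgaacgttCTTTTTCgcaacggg
EEF2, chr19:3985449-3985483, minus strand: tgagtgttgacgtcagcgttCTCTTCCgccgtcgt
EIF4B, chr12:53006436-53006470, plus strand: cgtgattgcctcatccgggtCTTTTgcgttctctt
EIF2D, chr1:206612451-206612485, minus strand: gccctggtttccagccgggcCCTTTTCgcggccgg

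The interferon-stimulated response element, searched as GAAA, any 2 bases and GAAA on both strands, was found for 2 of the 28 genes (7.14%) within 250 bases before and 50 after a start, against 3.89% of measured genes with an entry. The 2 genes are EIF2AK2 and EIF6. In EIF2AK2, which encodes the interferon-inducible and RNA-activated kinase PKR, the match runs across the start site itself, from position -6 to position 4. Capitals mark the match in both sequences.
EIF2AK2, chr2:37156966-37157020, minus strand: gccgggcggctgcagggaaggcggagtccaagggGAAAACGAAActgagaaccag
EIF6, chr20:35284758-35284812, minus strand: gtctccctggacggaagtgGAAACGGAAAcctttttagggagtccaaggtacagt

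The core of the element that ATF4 and its C/EBP partners bind, searched as TGATGNAA on both strands in the same window, was found for 1 of the 28 genes (3.57%), against 3.22% of measured genes with an entry. That gene is EIF4E3, and the match lies before 1 of its 3 listed starts. A match is a description of letters and does not show binding, and a gene with none may hold the element outside this window.
EIF4E3, chr3:71729104-71729158, minus strand: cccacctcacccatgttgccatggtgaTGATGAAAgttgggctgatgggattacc

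Levels below are log2 values as deposited, and differences are siATF4 minus siCTRL on that scale. ATF4 itself read 7.72, 7.88 and 8.14 on siATF4 replicates 1, 2 and 3 and 8.67, 8.64 and 8.85 on the siCTRL arrays, a difference of -0.80 (SE 0.14). That leaves 57.4% of the control level, so the message was lowered but not removed. Each sample is labelled a technical replicate, and no p-value below covers more than the spread among these 6 arrays, which may be technical. In such bulk RNA, fewer cells of a kind and less RNA per cell cannot be told apart. Of the 15 markers listed for myeloid and monocytic leukaemia cells 8 were measured. They were CD68 (9.27 to 11.2), LYZ (8.33 to 10.9), FLT3 (8.19 to 9.67), MPO (5.58 to 10.4), SPI1 (7.78 to 8.52), CSF1R (5.05 to 8.18), MEIS1 (5.01 to 6.13) and the monocyte marker CD14, which at 3.22 to 4.18 lay around the array medians of 3.88 to 3.96. Of the markers of other cell types CD2 (T cell, 3.92 to 4.19), KLF1 (erythroid, 3.57 to 3.86) and EPCAM (epithelial, 3.86 to 4.08) lay near those medians. Above them on most or all arrays were the B cell factor PAX5 (3.76 to 6.12), the keratins KRT18 (6.11 to 7.40) and KRT8 (4.31 to 5.03), and PECAM1 (5.26 to 6.82). The siATF4 replicate 1 array stood apart most often: it was the lowest or highest of the 6 for 46.4% of all genes and for 16 of the 30 factors. It was the lowest for 11 of the 30, against 23.6% of all genes. The siATF4 replicate 3 array was the lowest or highest for 15 of the 30, against 35.0% of all genes. Without siATF4 replicate 1 the mean difference over the 30 factors was 0.01 in place of -0.05, and without siATF4 replicate 3 it was -0.09.

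No translation factor and no EIF2AK kinase passed the test. In limma with Benjamini-Hochberg adjustment over all 14884 genes, 0 of the 34 lay below an adjusted p of 0.05, where 0% of all genes were called. ATF4, the siRNA target, was thus not called either. Its unadjusted limma p was 0.00082 and its two-sided exact permutation p was 0.1. At an unadjusted p below 0.05 there were 0 of the 34, against 1.46% of all genes, and the lowest unadjusted p among them was 0.117, for EIF5B. Of the 30 factors 16 had a lower and 14 a higher mean with siATF4, and 46.2% of all genes were lower. The median difference was -0.02 for the factors and 0.01 for all genes tested, and the median size of a difference was 0.10 and 0.09. In size the differences of the factors were near those of the genes at large. Averaged over the 30 factors the arrays read 7.14, 7.28 and 7.33 with siATF4, against 7.33, 7.26 and 7.31 with siCTRL, and siATF4 replicate 1 was the lowest. Of the 30 factors 6 were lower in every replicate number, against 9.2% of all genes, and 5 were higher in every number, against 14.4%. Groups did not overlap for 2 of the 30 factors, EIF5B (below) and EIF5AL1 (above), against 5.89% of all genes, of which 2.59% had siATF4 below and 3.3% above.

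**Figure D1:**
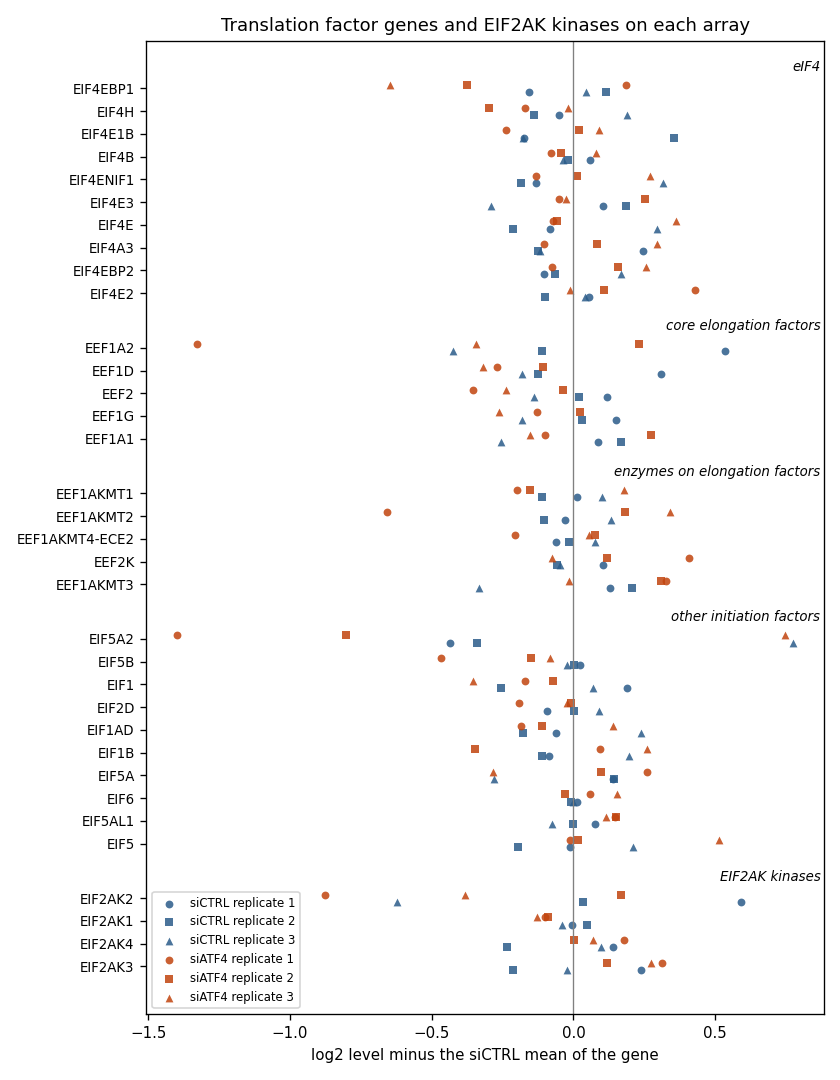
Log2 level of each of the 34 genes on each of the 6 arrays, less the siCTRL mean of the gene (horizontal axis). Colour marks the siRNA and the symbol shape the replicate number. The siATF4 replicate 1 points of EEF1A2, EIF5A2 and EIF2AK2 lie farthest to the left, and the colours of most other genes mix.

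Among the eIF4 genes 4 had a lower and 6 a higher mean with siATF4, with differences from -0.28 to 0.17. The 3 largest in size were EIF4EBP1, EIF4E2 and EIF4H. EIF4EBP1 encodes a protein that binds the cap-binding factor eIF4E and keeps it from the mRNA until mTORC1 phosphorylates it, and it is known as an ATF4 target in stressed cells. It read 7.46, 6.90 and 6.63 on siATF4 replicates 1, 2 and 3 and 7.12, 7.39 and 7.32 on siCTRL replicates 1, 2 and 3. The siATF4 replicate 1 array was thus the highest of the 6, and the other siATF4 arrays were the lowest. The difference was -0.28 (SE 0.22, 95% interval -0.80 to 0.24, two-sided exact permutation p = 0.4), and by replicate number it was 0.34, -0.49 and -0.69. Without siATF4 replicate 1 it was -0.51, without both arrays of number 1 it was -0.59, and without siATF4 replicate 3 it was -0.09.

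EIF4E2, a cap-binding homologue of eIF4E linked to repression of its mRNAs, read 7.03, 6.71 and 6.59 with siATF4, against 6.66, 6.51 and 6.65 with siCTRL. The siATF4 replicate 1 array was the highest of the 6. The difference of 0.17 (SE 0.14) was 0.05 without that array and 0.27 without siATF4 replicate 3. EIF4H, which assists the helicase eIF4A, read 8.53, 8.40 and 8.68 with siATF4, against 8.65, 8.56 and 8.89 with siCTRL. It was lower in every replicate number (-0.12, -0.16 and -0.21) although the groups overlapped, with a difference of -0.16 (SE 0.13), or -0.07 without siCTRL replicate 3 and -0.23 without siATF4 replicate 3. The other eIF4 genes lay between -0.04 for EIF4E1B and 0.11 for EIF4EBP2, the second eIF4E-binding protein. EIF4E, the cap-binding protein, was at 0.08 (SE 0.18), and EIF4A3, the helicase of the exon junction complex, at 0.09 (SE 0.16). EIF4ENIF1, the carrier of eIF4E into the nucleus, was at 0.05 and EIF4E3, a further cap-binding homologue, at 0.06.

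EIF4B, the RNA-binding helper of eIF4A, had 2 named features that disagreed. The brighter read 8.63, 8.67 and 8.79 with siATF4, against 8.77, 8.69 and 8.67 with siCTRL, a difference of -0.01. The dimmer read 6.94, 8.17 and 7.95 against 8.19, 8.23 and 7.92, a difference of -0.42 with siATF4 replicate 1 as the lowest array. The brighter feature stood for the gene, so the near-zero difference of EIF4B holds for that feature alone.

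Of the 5 core elongation factors 4 had a lower mean with siATF4 and EEF1A1 was at 0.01. The subgroup mean was 8.51 ± 0.26 with siATF4, against 8.71 ± 0.24 with siCTRL (SD, n = 3 each), a mean difference of -0.21, or -0.68, 0.08 and -0.03 by replicate number. With single arrays left out it ranged from -0.35 to -0.09, and without both arrays of number 1 it was 0.03. The median level of the 5 genes was that of EEF1A1 on every array. Its difference of 0.01 is therefore a reading of EEF1A1 alone and not of the subgroup. The sign of the subgroup mean turned without both arrays of number 1. EEF2, the translocase that moves the ribosome by a codon, read 12.11, 12.43 and 12.23 with siATF4, against 12.58, 12.49 and 12.33 with siCTRL. It was lower in every replicate number (-0.47, -0.06 and -0.10), with a difference of -0.21 (SE 0.13, 95% interval -0.52 to 0.10), and the groups overlapped. With single arrays left out it ranged from -0.30 (without siATF4 replicate 2) to -0.14 (without siATF4 replicate 1).

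EEF1A1 delivers aminoacyl-tRNA to the ribosome. It read 8.21, 8.59 and 8.16 with siATF4, against 8.40, 8.48 and 8.06 with siCTRL, and its difference of 0.01 (SE 0.17) turned to -0.01 with quantile normalization. Its paralogue EEF1A2, mainly a factor of muscle and nerve, read 4.26, 5.81 and 5.24 with siATF4, against 6.12, 5.47 and 5.16 with siCTRL. The highest and the lowest of its 6 values were the 2 arrays of number 1. The difference was -0.48 (SE 0.42), or -0.06 without siATF4 replicate 1, -0.21 without siCTRL replicate 1 and 0.21 without both. It was -0.84 without siATF4 replicate 2. EEF1A1 has near-identical processed copies in the genome, and signal of this feature from such copies was not tested.

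EEF1D and EEF1G are subunits of the complex that reloads the elongation factor with GTP. EEF1D read 5.09, 5.25 and 5.04 with siATF4, against 5.66, 5.23 and 5.17 with siCTRL. Its difference was -0.23 (SE 0.16), or -0.08 without siCTRL replicate 1 and -0.32 without siCTRL replicate 3. EEF1G was lower in every replicate number by small amounts (-0.28, -0.01 and -0.08), with a difference of -0.12 (SE 0.13). That difference was -0.05 without siCTRL replicate 1 or without siATF4 replicate 3, and -0.21 without siCTRL replicate 3. The second, dimmer feature of EEF1G was at -0.04. By the feature that stood for each gene, the 4 genes with a pyrimidine start printed above gave values from -0.21 to 0.01. EEF2 was at -0.21, EIF2D at -0.07, EIF4B at -0.01 and EEF1A1 at 0.01. The dimmer feature of EIF4B was at -0.42.

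**Figure D2:**
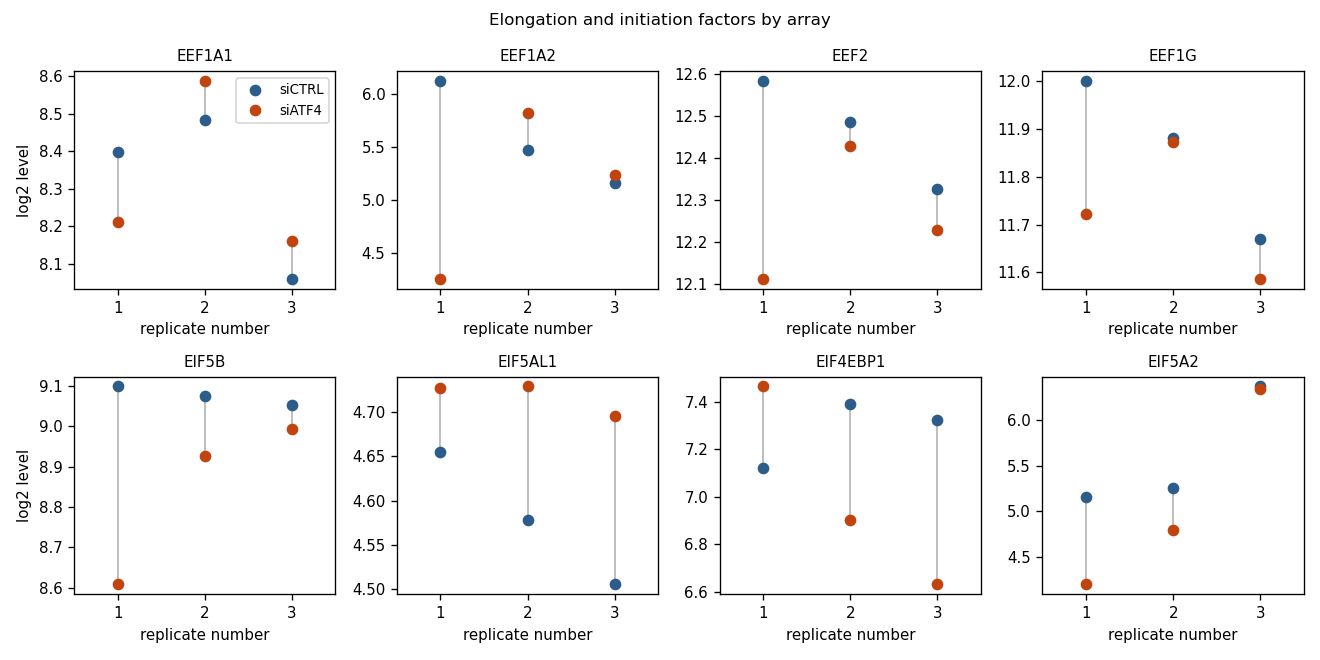
Log2 level (vertical axis, a different range in each panel) by replicate number (horizontal axis) for 8 factors, with a grey line joining arrays of the same number. EIF5B is lower and EIF5AL1 higher with siATF4 at each number, EEF1A2 separates by -1.86 at number 1 against 0.34 and 0.08 at the other numbers, and EIF5A2 differs more between numbers than between siRNAs.

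The enzymes that act on elongation factors split 3 lower and 2 higher, with differences from -0.06 to 0.21. EEF1AKMT3, a lysine methyltransferase of eEF1A, read 5.51, 5.49 and 5.17 with siATF4, against 5.31, 5.39 and 4.85 with siCTRL. It was higher in every replicate number (0.20, 0.10 and 0.32) with overlapping groups. The difference was 0.21 (SE 0.18), or 0.04 without siCTRL replicate 3 and 0.32 without siATF4 replicate 3. EEF2K, the kinase that inhibits eEF2, read 7.03, 6.74 and 6.55 against 6.73, 6.57 and 6.58. Its difference of 0.15 (SE 0.15) was 0.02 without siATF4 replicate 1 and 0.26 without siATF4 replicate 3. EEF1AKMT1, another such methyltransferase, read 5.61, 5.66 and 5.99 against 5.83, 5.70 and 5.91, a difference of -0.06 (SE 0.14). EEF1AKMT2 was at -0.05, or 0.26 without siATF4 replicate 1 and -0.24 without siATF4 replicate 3. EEF1AKMT4-ECE2 was at -0.02 and is a read-through locus whose feature also covers the peptidase ECE2, so it is no clean reading of a methyltransferase.

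The remaining initiation factors split 5 lower and 5 higher. EIF5B, the GTPase that joins the ribosomal subunits, read 8.61, 8.93 and 8.99 with siATF4, against 9.10, 9.08 and 9.05 with siCTRL. Every siATF4 array lay below every siCTRL array, by a difference of -0.23 (SE 0.13, 95% interval -0.54 to 0.08). That leaves 85.1% of the control level. An exact permutation test (two-sided) gave p = 0.1, the lowest value possible for 3 arrays against 3, and the adjusted limma p was 1.00. With single arrays left out the difference ranged from -0.31 (without siATF4 replicate 3) to -0.12 (without siATF4 replicate 1).

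EIF5AL1, a near-identical copy of the EIF5A gene, read 4.73, 4.73 and 4.70 with siATF4, against 4.66, 4.58 and 4.51 with siCTRL, so all siATF4 arrays lay above all siCTRL arrays by 0.14 (SE 0.10, exact permutation p = 0.1). Signal over background was not analysed here. EIF5A, the hypusine-carrying factor that helps stalled ribosomes, was at 0.02 (SE 0.19), and probes of this pair may share signal.

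EIF5A2, the less widely expressed paralogue, had the largest difference in size of all 34 genes, -0.48 (SE 0.58), just beyond that of EEF1A2. It read 4.20, 4.79 and 6.34 with siATF4, against 5.16, 5.26 and 6.37 with siCTRL, so the number 3 arrays were the highest in both groups. The differences by number were -0.96, -0.46 and -0.03. Without siATF4 replicate 1 it was -0.03, without siCTRL replicate 3 it was -0.10, and without siATF4 replicate 3 it was -1.10. With the replicate number as a block in limma its unadjusted p was 0.0448, with an adjusted p of 1.00. It was the 1 gene of the 34 below 0.05 in that fit, against 3.12% of all genes.

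EIF1, which helps the ribosome to reject wrong start codons, read 9.02, 9.12 and 8.84 with siATF4, against 9.38, 8.94 and 9.26 with siCTRL, a difference of -0.20 (SE 0.15). Its paralogue EIF1B was at 0.00 (SE 0.18). EIF5, which triggers GTP hydrolysis by eIF2, was at 0.17 (SE 0.18) and higher in every replicate number, by 0.00, 0.21 and 0.30. Without siATF4 replicate 3 the difference of EIF5 was 0.0012, and without siCTRL replicate 3 it was 0.28. EIF2D, an alternative carrier of tRNA to the ribosome, was lower in every number, with a difference of -0.07 (SE 0.11), or -0.01 without siATF4 replicate 1. EIF6, which keeps the large subunit apart from the small, was at 0.06 (SE 0.10), and EIF1AD, a relative of eIF1A, at -0.05 (SE 0.15).

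The EIF2AK kinases went 2 lower and 2 higher. EIF2AK1 (HRI), the kinase that responds to heme shortage and relays mitochondrial stress, read 8.73, 8.74 and 8.70 with siATF4, against 8.82, 8.87 and 8.78 with siCTRL. The groups did not overlap for EIF2AK1, 1 of the 4 kinases, against 5.89% of all genes. The arrays of each group were close together. The difference was -0.11 (SE 0.09, 95% interval -0.33 to 0.12), with an unadjusted limma p of 0.298 and an exact permutation p of 0.1, the smallest possible. Limma draws the variance of each gene towards that of all genes, so its SE exceeds the spread of these arrays (SD 0.02 with siATF4 and 0.04 with siCTRL, n = 3 each). With each array left out in turn it ranged from -0.13 to -0.08.

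EIF2AK3 (PERK), the kinase of the endoplasmic reticulum, read 5.60, 5.41 and 5.56 with siATF4, against 5.53, 5.08 and 5.27 with siCTRL. It was higher in every replicate number (0.08, 0.33 and 0.30), with a difference of 0.24 (SE 0.14, 95% interval -0.11 to 0.58), and the groups overlapped. It was 0.36 without siCTRL replicate 1, 0.13 without siCTRL replicate 2 and 0.12 with array weights. EIF2AK4 (GCN2), which senses uncharged tRNA when amino acids run short, read 6.37, 6.19 and 6.26 with siATF4, against 6.33, 5.96 and 6.29 with siCTRL, a difference of 0.08 (SE 0.14).

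EIF2AK2 (PKR), whose start-site element is printed above, read 7.69, 8.74 and 8.19 on siATF4 replicates 1, 2 and 3 and 9.16, 8.60 and 7.95 on siCTRL replicates 1, 2 and 3. The mean of 13 measured interferon-stimulated genes, a list chosen after the data were seen, read 4.63, 5.93 and 4.74 and 6.73, 5.77 and 4.75 on the same arrays. The siCTRL replicate 1 array was the highest for EIF2AK2 and for each of the 13 genes, against 13.6% of all genes. Because the list was chosen with these values seen, that is a description, and a link to EIF2AK2 was not tested. The lowest array was siATF4 replicate 1 for EIF2AK2 and for 5 of the 13, and a number 3 array for the other 8. Without IFITM1, left out after its values were seen, the interferon mean was 4.65 on siATF4 replicate 1, above the 4.48 of both number 3 arrays. The difference of EIF2AK2 was -0.36 (SE 0.37), or -1.47, 0.14 and 0.24 by number, and without both arrays of number 1 it was 0.19. EIF6, the other gene with the element, ranged over 0.19 log2 on the 6 arrays, against 1.47 for EIF2AK2.

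**Figure D3:**
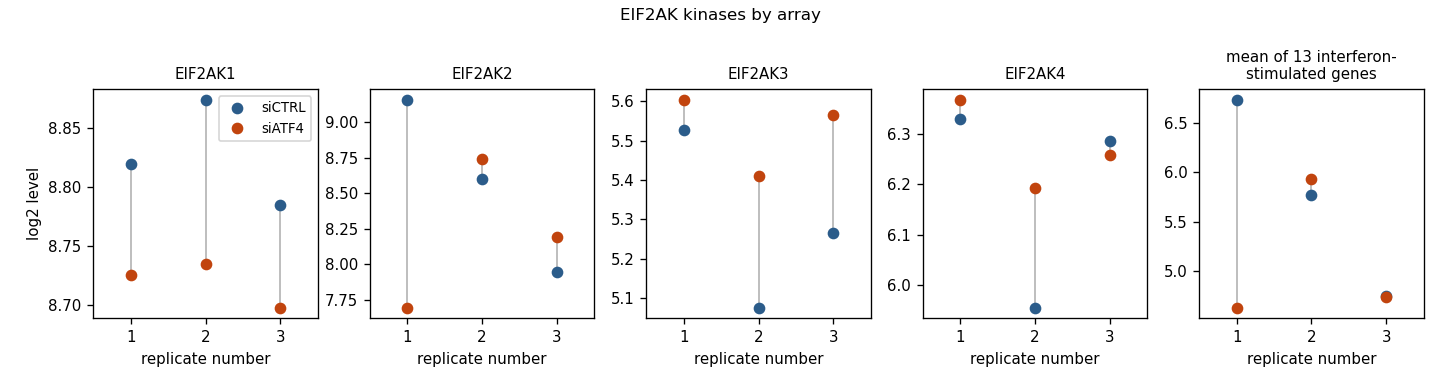
Log2 level (vertical axis, a different range in each panel) by replicate number (horizontal axis) for the 4 EIF2AK kinases and for the mean of 13 interferon-stimulated genes, with a grey line joining arrays of the same number. EIF2AK1 is lower and EIF2AK3 higher with siATF4 at each number, and EIF2AK2 runs from 7.69 to 9.16 with both ends at number 1. The interferon mean is highest at siCTRL replicate 1, and its 3 lowest arrays lie between 4.63 and 4.75.

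The 95% limma intervals set what these arrays leave possible. All 30 factors and all 4 kinases had intervals that held 0. For 23 of the 30 factors the whole interval lay within a 1.5-fold change in either direction. Among them were EIF4E, EEF1A1, EEF2 and EIF5B, and EIF4B by its brighter feature alone. The intervals of the other 7 reached beyond a 1.5-fold change, and the widest were those of EIF5A2 (-1.87 to 0.90) and EEF1A2 (-1.48 to 0.52). A difference inside an interval is compatible with these 3 arrays against 3, so the lack of a call is not evidence that it was absent. The size of difference that could be detected was not computed.

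**Figure D4:**
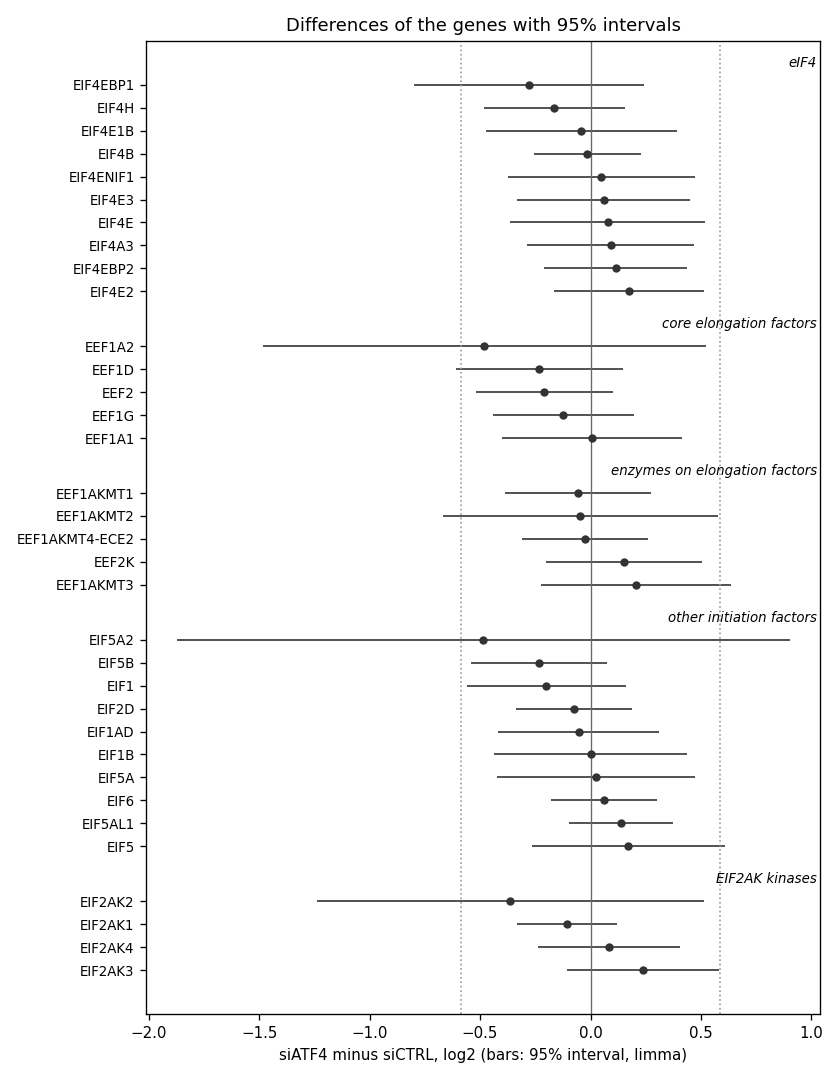
Difference of each gene, siATF4 minus siCTRL on the log2 scale (horizontal axis), with its 95% limma interval as a bar. The dotted lines mark a 1.5-fold change in either direction. Each bar crosses 0, and the bars of 23 of the 30 factors stay between the dotted lines.

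Most factors, like most genes tested, differed more between replicate numbers than between siRNAs. Of the variance of a gene over the 6 arrays, the replicate number took a median of 67.1% among the 30 factors and the siRNA group 15.4%, where the medians over all genes were 51.2% and 8.58%. By construction the number holds 2 of the 5 degrees of freedom and the group 1. The number took more than the group for 23 of the 30 factors, and for 81.8% of all genes. Its share was 97.0% for EIF5A, 94.7% for EIF4E and 91.3% for EIF4ENIF1, genes that differed by at most 0.08 between groups. The group took more than 40% for EIF2AK1 (78.0%), EIF5AL1 (70.5%), EIF5B (49.0%), EEF2 (43.6%) and EIF2AK3 (40.3%). How many of all genes lay above that cut is not given here. The list is therefore a description, and an excess over the genes at large was not tested. Myeloid markers also differed by number. MPO read 5.58, 8.45 and 10.45 with siATF4, against 9.11, 9.53 and 10.17 with siCTRL, and LYZ 10.68, 10.87 and 8.33 with siATF4, against 10.85, 10.37 and 8.51 with siCTRL. As a mean over the 8 measured myeloid markers, the arrays ranged from 7.20 to 7.90 with siATF4 and from 7.20 to 8.09 with siCTRL, lowest at number 3 in both. Their part in the levels of the factors was not tested.

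**Figure D5:**
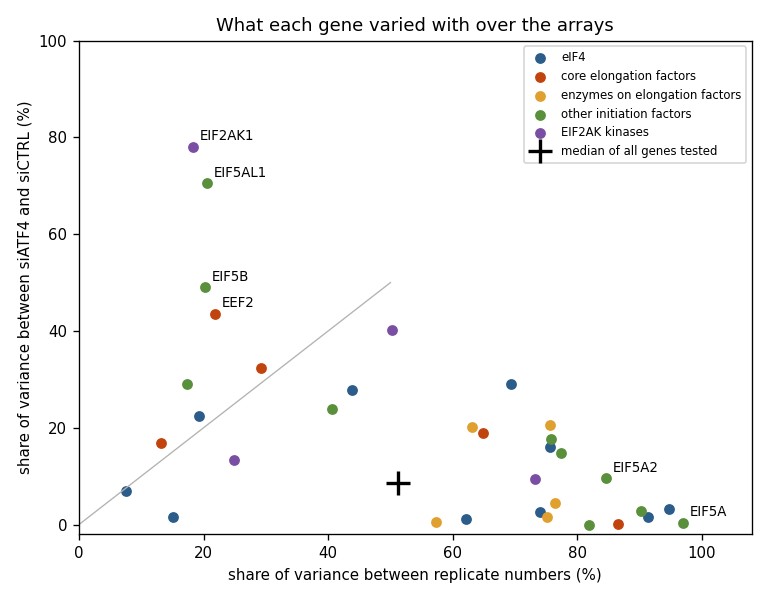
Share of each gene's variance over the 6 arrays taken by the replicate number (horizontal axis, percent) and by the siRNA group (vertical axis, percent), coloured by subgroup, with a cross at the median of all genes. The grey line marks equal shares. EIF2AK1 and EIF5AL1 lie highest, at 78.0% and 70.5% for the group, and 23 of the 30 factors lie below the line.

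Other genes of the pathway, listed by role with earlier results of these data known, also gave no call. In either direction 0 of each list passed the adjusted threshold of limma. Of the 44 genes measured over these lists 2 had an unadjusted limma p below 0.05, against 1.46% of all genes. They were IMPACT and ATF4, the siRNA target itself. With the replicate number as a block there were 5 of the 44, against 3.12% of all genes, with TRIB3, BZW2 and DPH5 added. After adjustment there were again 0. Of translation factors without an EIF or EEF symbol 14 of 20 were measured. A higher mean with siATF4 was seen for 11 of the 14, against 8011 of all 14884 genes. The list median was 0.13, and the list mean differed by 0.01, 0.19 and 0.05 by replicate number. The largest in size were PAIP2B, an inhibitor of the poly(A)-binding protein, at 0.37 (SE 0.35), and MKNK2, a kinase of eIF4E, at -0.33 (SE 0.26). The feature of BZW2, a mimic of eIF5, read higher on all siATF4 arrays than on any siCTRL array (0.29, SE 0.14). That held for 3.3% of all genes, and BZW2 is named after its values were seen. Of the mitochondrial translation factors 7 of 11 were measured and 6 of the 7 had a higher mean, with a median of 0.09, MTRF1 at 0.25 (SE 0.23) and GUF1 at 0.20 (SE 0.20).

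Of the genes around eIF2 phosphorylation 8 of 16 were measured, 5 with a lower mean and 3 with a higher, and besides ATF4 the largest was the pseudokinase TRIB3 at -0.80 (SE 0.41). TRIB3 was lower in every replicate number (-0.60, -0.77 and -1.03), and its unadjusted limma p was 0.0913 without the replicate block and 0.000876 with it. IMPACT, an inhibitor of GCN2 activation, read 8.87, 8.66 and 8.65 with siATF4, against 8.48, 8.50 and 8.37 with siCTRL. The groups did not overlap, as for 5.89% of all genes. IMPACT was higher with siATF4 by 0.28 (SE 0.11), with an unadjusted limma p of 0.0444 and an adjusted p of 1.00. GCN1, the ribosome-bound activator of GCN2, was at -0.30 (SE 0.22) and read 7.56 on siATF4 replicate 1 against 8.30 to 8.42 on the other arrays. IMPACT and GCN1 were named after their values were seen.

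Of the mTORC1 genes 8 of 12 were measured, 4 with a lower and 4 with a higher mean and a median of 0.01. DDIT4, which restrains mTORC1, read 4.81, 8.22 and 7.19 with siATF4, against 8.68, 8.27 and 8.23 with siCTRL. Every siATF4 array lay below every siCTRL array, as for 2.59% of all genes. The difference of DDIT4 was -1.66 (SE 0.79), or -3.87, -0.05 and -1.04 by number, and MTOR itself was at 0.17 (SE 0.22). Of the enzymes that make hypusine on eIF5A and diphthamide on eEF2, 7 of 9 were measured. A higher mean was seen for 5 of the 7, against 8011 of all 14884 genes, with DPH5 at 0.36 (SE 0.16) and DPH7 at 0.08 (SE 0.13).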

How the data were processed

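Total RNA (100 ng per sample) was labelled for Affymetrix arrays that cover whole transcripts, as the protocols in the labels state. The authors deposited 1 log2 value for each of 53617 features on 6 arrays. Partek is named in the submitters' processing notes, with no version. Neither the normalization, the background correction nor the log base is given in the sources used here, so log2 is read from the range of the values. A gene symbol was given for 16098 features, and a gene with several (779 genes) was represented by its brightest. No column was left without a sample (0).

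Groups were compared in limma 3.58.1 (R 4.3.3) with no other term, and Benjamini-Hochberg adjustment over 14884 genes at 0.05. SE is the moderated standard error. The test was checked on simulated data with independent noise on each array. That simulation held no effect of the replicate number, unlike these arrays, so it does not cover such an effect. The genes and lists described were chosen with earlier results of these data known. Values per array are given for the 3 largest differences in each subgroup, for genes without overlap, for EIF4EBP1 and for the kinases. Lists without a call have their 2 largest named.

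The labels number replicates 1 to 3 in both groups. Deviations from the group means correlated at 0.20, 0.40 and 0.62 between arrays of the same number, all above 0.1, so the numbers were also fitted as pairs. The pairing comes from the data alone, and siATF4 replicate 2 correlated more with siCTRL replicate 1 (0.48) than with its own number. The interferon list was chosen after seeing the data. Promoters came from RefSeq (GRCh38.p14), and array coordinates were not used.

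As alternatives, the replicate block, quantile normalization, equal medians of the arrays, the mean over the features of each gene, a trended robust prior, array weights, a filter on the dimmest 33.3% of genes (all 34 genes passed it), all features tested, a threshold of 0.01 and each array left out were tried. Leaving out both arrays of a number was chosen after seeing the data.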

Additional observations from a re-analysis of the deposited data

How the results depend on the processing

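With 3 arrays a group, 0 genes were called higher and 0 lower in limma under every alternative, the replicate block included, with 218 genes at an unadjusted p below 0.05 in the fit without it and 464 with it. The replicate block left the mean difference of the factors at -0.05 and changed no call. Of the 34 genes 20 kept their sign with any 1 array left out, and 18 also with both arrays of any number left out, an alternative chosen after seeing the data. The number of factors with a lower mean ranged from 12 to 20 with arrays left out and was 18 with quantile normalization. Taking on each array the median level over the genes of a subgroup, in place of their mean level, gave a difference of -0.051 for the eIF4 group, -0.057 for the enzymes on elongation factors and 0.0062 for the core elongation factors. The median of the differences of single genes is another quantity, at 0.05, -0.02 and -0.21 for the same subgroups. On every array the median level was that of EEF1AKMT1 for the enzymes and that of EEF1A1 for the core factors. Each is thus a reading of a single gene and not of its subgroup. With arrays or numbers left out, the mean ranged from 0.0071 to 0.12 for these enzymes, from -0.13 to 0.12 for the kinases and from -0.17 to 0.072 for elongation factors and enzymes together, with the upper end in each case without both arrays of number 1.

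The sign turned with arrays or numbers left out for 16 genes, with these ranges: EIF2AK2 -0.67 to 0.19, EIF2AK4 -0.035 to 0.15, EEF1A1 -0.13 to 0.10, EEF1A2 -0.89 to 0.21, EIF4A3 -0.070 to 0.31, EIF4B -0.080 to 0.047, EIF4E -0.065 to 0.22, EIF4E1B -0.20 to 0.13, EIF4E3 -0.086 to 0.17, EIF4ENIF1 -0.061 to 0.21, EEF1AKMT1 -0.18 to 0.020, EEF1AKMT2 -0.24 to 0.26, EEF1AKMT4-ECE2 -0.083 to 0.065, EIF1AD -0.15 to 0.066, EIF1B -0.13 to 0.18 and EIF5A -0.12 to 0.18. It also turned with quantile normalization for EEF1A1 (-0.013) and EIF1B (-0.028), and with array weights for EIF4E1B (0.015), EEF1AKMT2 (0.12), EEF1AKMT4-ECE2 (0.055), EIF1B (-0.095) and EIF5A (-0.039). The cause was not tested, and leaving arrays out also lowers their number. The number of arrays limits the precision.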

Other observations

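The arrays also carried 3 non-coding transcripts named after translation factors, which the rule left out. EIF3J-DT, the divergent transcript beside the gene of an eIF3 subunit, read 5.99, 5.43 and 5.68 with siATF4, against 5.26, 4.99 and 5.69 with siCTRL, a difference of 0.39 (SE 0.22, exact permutation p = 0.3). The groups overlapped through siCTRL replicate 3. The pseudogene EEF1DP3 was at 0.12 (SE 0.15), and the antisense transcript EIF1B-AS1, at levels below the array medians, at 0.09 (SE 0.13).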
